A study of Mus musculus with 8 samples.

Results

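Gene deserts are long stretches of chromosome without protein-coding genes, and many distal enhancers that control lymphocyte genes lie in them. A natural killer (NK) cell is an innate lymphocyte that kills stressed or transformed cells, and its identity genes depend on such distal elements. An enhancer in use is held free of nucleosomes by transcription factors, and such DNA can be cut by the transposase of an ATAC-seq assay, which is how open chromatin is read here. Among the factors known to bind lymphocyte enhancers are the RUNX, ETS and T-box families.

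Open regions in gene deserts were taken from 8 ATAC-seq peak lists of splenic NK cells. Peaks of all lists were merged wherever they overlapped by 1 bp, and a merged region with a peak in at least 2 lists was a consensus region. A desert region was a consensus region outside every protein-coding gene and more than 50 kb from every protein-coding gene start or end. There were 4361 desert regions among 50044 consensus regions (8.71%). The other consensus regions comprised 11086 between genes but within 50 kb of one (near intergenic), 21339 in gene bodies and 13258 within 1 kb of a gene end.

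The libraries came from 4 mice that carry HSF1 with alanine at residues 303 and 307 (MUT, replicates 26 to 29) and from 4 mice wild-type for HSF1 (WT, replicates 4 to 7), all unstressed. HSF1 is the main transcription factor of the heat shock response, and phosphorylation at these serines is known to hold it back. Each library was made from 200000 CD49b+ CD3e- cells of 1 mouse, enriched on DX5 beads and sorted. The labels used here give no strain, sex, age or litter, and any such difference between MUT and WT mice cannot be told apart from the genotype. A list gives position, width and an unnamed score of each peak but no reads, so the depth behind a value is unknown, and a region without a peak is one where no peak was called, not one shown to be closed.

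The lists held 44827, 49627, 46623 and 44333 peaks in MUT replicates 26, 27, 28 and 29, and 45004, 46102, 45066 and 42695 in WT replicates 4, 5, 6 and 7. Of 8 NK cell markers, 8 had a peak within 1 kb of a gene end in every library, among them Ncr1, Eomes and Prf1. Cd3d, Cd3e and Cd3g were also open in every library although the sort excluded CD3e+ cells, whereas Cd8b1, Csf1r and Mpo had no peak in any list. Between 0 and 3 of 5 B cell markers were open in a MUT library, against 1 to 2 in a WT library.

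The desert regions lay on 20 chromosomes, from 67 on chromosome 19 to 411 on chromosome 10. Their median distance to a protein-coding gene was 110 kb, and 2381 (54.6%) were more than 100 kb away. The most remote region, chr1:101902036-101903102 between Cntnap5b and Cdh20, lay 1411 kb from a gene and had a peak in all 8 lists. Regions just inside the limit, at 50 to 55 kb, numbered 306, of which 63.1% were in all 8 lists; regions just outside it, at 45 to 50 kb, numbered 304, of which 66.1% were.

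Free of protein-coding genes did not mean free of annotation. There were 1191 desert regions (27.3%) inside a long non-coding RNA (lncRNA) gene, and 388 lay within 1 kb of the end of one. Antigen receptor loci held 139, of which 14 also lay inside a lncRNA gene. Their variable, joining and constant segments are not listed as protein-coding genes. The immunoglobulin heavy chain locus Igh held 84, the T cell receptor alpha locus Tcra 39, Tcrb 8, Igk 5, Tcrg 3 and Igl 0. Only 752 regions stayed over 50 kb from every annotated gene of any kind.

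No genome sequence was used here, so the sequences shown are those that RefSeq (GRCm38.p6) gives for short non-coding genes inside desert regions. Of 1005 microRNA hairpins, 5 overlapped a desert region. One of them, Mir30a (chr1:23272269-23272339, plus strand), lay inside a region that had a peak in every MUT library and in no WT library, which is described further on. The 2 mature products are shown because they identify the gene under that peak, with the seed, bases 2 to 8, in capitals.
mmu-miR-30a-5p: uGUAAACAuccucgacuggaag
mmu-miR-30a-3p: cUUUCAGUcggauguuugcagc
The first carries the seed that defines the miR-30 family. A further hairpin, Mir9-2 between Mef2c and Tmem161b, lay in a region called in all 8 lists at a low mean score percentile of 20.1.
The percentile of a peak is the rank of its score within its own list, where 100 is the strongest, and a region's value is the mean over the lists that hold it.

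The other sequences are promoters of lncRNA genes that start inside a desert region, 300 bases each, from 250 before the start to 50 after it. There were 148 such promoters in 131 regions. Of the 131, 102 had a peak in all 8 lists, 4 in MUT lists only and 1 in WT lists only, and none was in all lists of 1 genotype and none of the other. The letters TGTGGTT, a RUNX motif, occurred on either strand in 28 of the 148 (18.9%), in 5.27% of all 32851 promoters and in 6.00% of 1450 lncRNA promoters inside other consensus regions. The ETS motif ACAGGAAG occurred in 24 (16.2%), against 3.58% of all promoters and 5.52% of those 1450. The other ETS form searched, CCGGAA, occurred in 13.5%, against 14.9% of all promoters and 22.7% of the 1450. Over all 11588 lncRNA promoters the shares were 6.29% for TGTGGTT, 4.22% for ACAGGAAG and 7.94% for CCGGAA.

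The other motifs were read in the same windows. The AP-1 motif TGANTCA occurred in 12.2% of the desert promoters, 7.81% of all promoters and 5.66% of the 1450. The T-box letters AGGTGTGA occurred in 2.03%, 1.28% and 1.31%, and AGGNGGCNG, a CTCF core, in 10.1%, 15.4% and 23.2%. The pair of inverted GAA units that HSF1 reads, GAANNTTC, occurred in 9.46%, 7.86% and 5.38%. Over all lncRNA promoters GAANNTTC occurred in 9.05%. The median GC content was 50.7% in the desert promoters, 52.7% in all promoters, 48.3% in all lncRNA promoters and 62.0% in the 1450. Promoters can overlap one another, and a match is only a run of letters.

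RUNX and ETS letters of the ACAGGAAG form stood together in 7 desert promoters (4.73%), against 0.354% of all lncRNA promoters. The share with both among lncRNA promoters inside other consensus regions was not counted. The 3 strongest regions with both, and the strongest with a RUNX match alone (Gm19585), are shown with matches to any of the 7 motifs in capitals.
Gm35891 (chr3:51128890-51129189, minus strand): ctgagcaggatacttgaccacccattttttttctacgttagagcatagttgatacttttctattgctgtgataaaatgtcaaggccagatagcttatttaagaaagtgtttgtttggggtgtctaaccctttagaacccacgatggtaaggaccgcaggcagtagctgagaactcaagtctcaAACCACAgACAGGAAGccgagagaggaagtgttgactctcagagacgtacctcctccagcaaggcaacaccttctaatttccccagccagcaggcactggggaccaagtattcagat
4732419C18Rik (chr8:123754179-123754478, minus strand): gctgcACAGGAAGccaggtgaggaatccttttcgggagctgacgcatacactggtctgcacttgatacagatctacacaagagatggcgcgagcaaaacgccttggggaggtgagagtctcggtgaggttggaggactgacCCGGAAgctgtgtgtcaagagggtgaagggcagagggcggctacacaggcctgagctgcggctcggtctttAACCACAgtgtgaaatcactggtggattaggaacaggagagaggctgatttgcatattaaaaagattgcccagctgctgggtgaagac
Gm41331 (chr15:60141576-60141875, plus strand): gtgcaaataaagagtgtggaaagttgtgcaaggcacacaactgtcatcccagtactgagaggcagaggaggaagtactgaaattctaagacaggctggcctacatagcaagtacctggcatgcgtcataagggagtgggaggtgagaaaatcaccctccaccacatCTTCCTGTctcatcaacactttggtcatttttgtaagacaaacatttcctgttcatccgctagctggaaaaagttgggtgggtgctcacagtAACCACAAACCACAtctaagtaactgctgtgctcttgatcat
Gm19585 (chr17:52149039-52149338, plus strand): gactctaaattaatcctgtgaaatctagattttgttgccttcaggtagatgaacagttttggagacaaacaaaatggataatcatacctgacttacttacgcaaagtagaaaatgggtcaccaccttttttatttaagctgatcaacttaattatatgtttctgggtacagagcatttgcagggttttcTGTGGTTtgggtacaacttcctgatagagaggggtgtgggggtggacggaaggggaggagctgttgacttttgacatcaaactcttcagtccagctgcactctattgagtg
All 4 lay in regions open in all 8 libraries. The Gm35891 region, 95.1 kb from Noct, had a percentile of 94.0 and 567, 598, 578 and 549 bp called in MUT replicates 26 to 29, against 607, 569, 551 and 554 bp in WT replicates 4 to 7. The Gm19585 region, 316 kb from the chromatin organiser Satb1, had 380, 379, 407 and 410 bp in MUT and 392, 394, 385 and 409 bp in WT libraries. In both the ranges of the genotypes overlapped.

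Desert regions were unevenly spread. There were 2768 stretches of desert between neighbouring protein-coding genes, 941.4 Mb in all, and 34.0% of them held a desert region. The density was 4.62 regions per Mb, against 18.6 in near intergenic sequence, 21.6 in gene bodies and 169 at gene ends. Stretches with 10 or more regions numbered 113 and held 2010 regions (46.1%), while 326 stretches held 1 region. The longest were not the fullest. The 10 longest stretches, each at least 3576 kb, held 33 regions in all and the 10 fullest held 411.

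The 4 fullest stretches lay in the Igh and Tcra loci and beside Id2 and Myc. The stretch from Adam6a to Zfp386, inside Igh, held 76 regions, 57 of them in all 8 libraries, at a median spacing of 15.1 kb. The stretch beside Id2, an inhibitor of E proteins that innate lymphoid cells need, held 63, and the one beside Myc, a driver of cell growth, held 43. The stretch from Gm36448 to Dad1, inside Tcra, held 39.

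The next fullest stretches were shorter and denser. Klf14 to Mkln1 held 35 regions and Bcl2l11, which encodes the death-promoting protein BIM, bordered 34, each at 103 regions per Mb of desert. Foxo1 to Cog6 held 32, Eea1 to Btg1 31, Rap1b to Mdm1 29 and Runx1 to Setd4 29. The stretch between Rap1b, a small GTPase, and Mdm1 was the densest of the 10, at 148 regions per Mb.

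**Figure D1:**
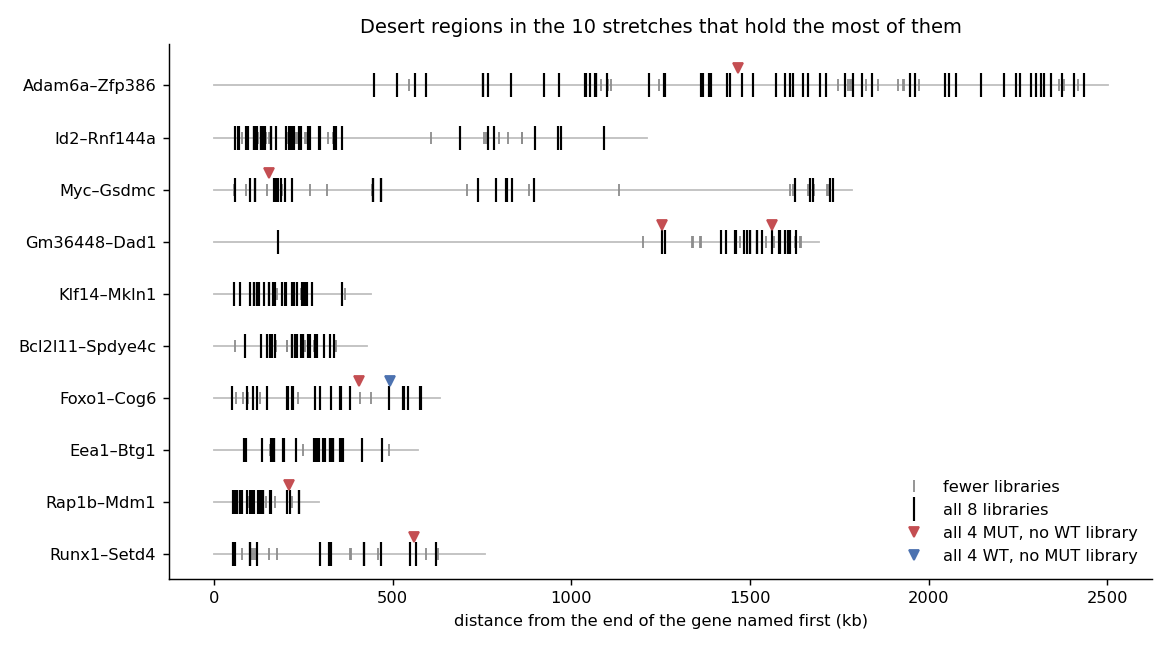
Positions of desert regions (ticks) along the 10 stretches that hold the most, as distance in kb from the end of the gene named first; long black ticks are regions in all 8 libraries, short grey ticks regions in fewer, and triangles mark regions in all libraries of 1 genotype and none of the other. Regions beside Id2 crowd near the gene, and 7 of the 8 triangles are MUT.

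Gene lists were then set against the genes that border desert regions. Of 45 transcription factors of NK and other lymphoid cells, 28 bordered a desert region, and 481 regions had one of them on at least 1 side, 304 in all 8 libraries. Id2 had 63 such regions, Myc 55, Foxo1 35, Runx1 and Tox 29 each, Zeb2 27, Ets1 26 and Eomes 21. The Eomes gene, a T-box factor that NK cells need, had 17 of its 21 in all 8 libraries, the strongest at a percentile of 98.2. These counts were not adjusted for the size of the neighbouring deserts, and a border gene is not shown to be the target.

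Of 27 cytokine and chemokine receptor genes, 4 bordered desert regions: Cxcr4 with 16, Tgfbr2 with 14, Ifngr1 with 9 and S1pr1 with 8. Of 40 NK receptor, adhesion and effector genes, 9 did, among them the interferon gamma gene Ifng with 19 and the integrin gene Itga4 with 16. Of 40 signalling and immediate early genes 11 did, led by Bcl2l11 with 34, the inhibitor of inflammatory signalling Tnfaip3 with 24 and Jun with 20. Of 25 listed chaperone genes 1 did, the mitochondrial chaperone gene Hspa9, with 1 region. Of 49 neural adhesion and guidance genes, chosen as genes of another tissue, 17 bordered 57 regions, 41 of them in all 8 libraries.

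Of the 12 strongest desert regions, 1 bordered a gene of those lists, the transcription factor gene Klf6. The highest mean percentile of any desert region was that of chrX:94865500-94865964 between Zxdb and Spin4. It had 442, 447, 449 and 408 bp called in MUT replicates 26 to 29 and 465, 439, 431 and 435 bp in WT replicates 4 to 7. Others of the 12 strongest lay between Pde7a and Dnajc5b, Tab2 and Ust, Akr1e1 and Klf6, and Gja1 and Hsf2, each at a percentile of 99.6 or more. None of the 12 passed the test between genotypes described below.

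The widest region, chr17:39843077-39846760 between the exocrine secreted peptide genes Esp15 and Esp38, had 3583 to 3640 bp called in MUT and 3579 to 3680 bp in WT libraries. Its percentile was only 2.48, the weakest among the 6 widest regions. No region was removed here for repeated sequence, and whether repeats lie under this one was not tested. The other 5, between Bbx and Ccdc54, Rasgrp1 and Thbs1, Sox5 and Bcat1, Ccdc171 and Bnc2, and Pced1b and Rpap3, had percentiles of 52.2 to 83.0.

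Within each library, desert peaks were set against near intergenic peaks. Desert peaks were wider and ranked higher in all 8 libraries. Their median width was 370, 383, 376 and 363 bp in MUT replicates 26 to 29 and 364, 366, 365 and 369 bp in WT replicates 4 to 7. Near intergenic medians were 354, 360, 356 and 350 bp in MUT and 347, 344, 347 and 349 bp in WT libraries, so the sets did not overlap within either genotype. The mean difference was 18.6 ± 3.29 bp (SD, n = 8) and higher in 8 of 8 libraries (exact two-sided sign-flip test, p = 0.00781, the smallest possible, 0.0156 adjusted over 2 tests). The median percentile was higher by 2.03 ± 0.586 points (SD, n = 8), again in 8 of 8 libraries (exact sign-flip test, p = 0.00781, 0.0156 adjusted). Among the upper 50% of each list the width difference was 5.19 bp and no longer passed (exact p = 0.109).

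**Figure D2:**
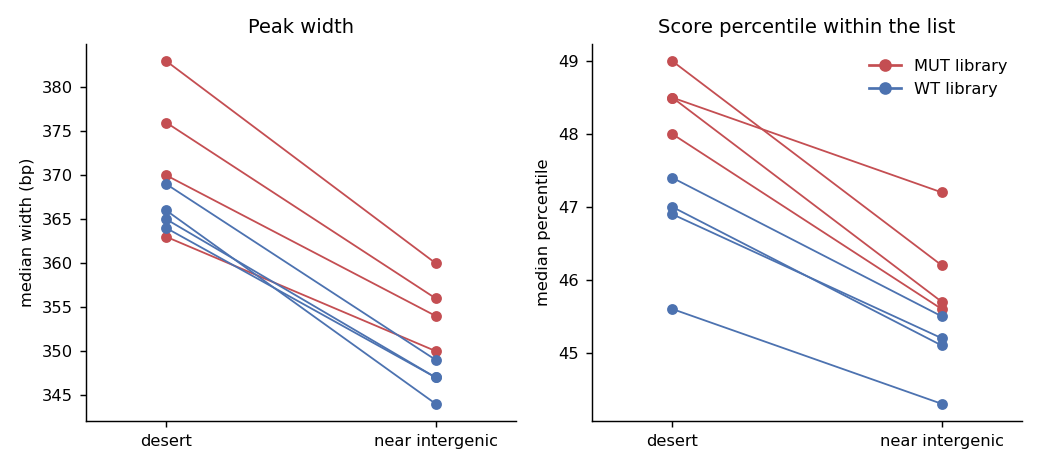
Median peak width in bp (left) and median score percentile (right) of desert and near intergenic peaks, 1 line per library, with MUT in red and WT in blue; the axes do not start at 0. Every line falls to the right, by 18.6 bp and 2.03 points on average.

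Presence across mice was similar in deserts and around them. In all 8 lists were 2690 desert regions (61.7%, 95% Wilson interval 60.2 to 63.1%), against 62.4% of near intergenic, 63.9% of gene body and 84.7% of gene end regions. The share was much the same at every distance, from 62.4% at 50 to 100 kb through 61.4% at 100 to 200 kb and 60.3% at 200 to 500 kb to 62.5% beyond that. Desert regions in all 8 lists had a median percentile of 59.0, those in 7 lists 28.1 and those in 2 lists 16.4, so a region missing from some lists was usually a weak one.

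The comparison of genotypes asks how the chromatin of resting NK cells differs when HSF1 carries the changed residues. A slightly larger share of the MUT peak lists lay in deserts. The share was 8.247, 8.179, 8.236 and 8.247% of all peaks in MUT replicates 26 to 29, against 8.119, 8.102, 8.106 and 7.999% in WT replicates 4 to 7. Every MUT value lay above every WT value. The means were 8.23 ± 0.0326% in MUT and 8.08 ± 0.0557% in WT libraries (SD, n = 4 each), a difference of 0.146 percentage points (exact two-sided permutation test, p = 0.0286, the smallest that 4 against 4 allows, 0.0857 adjusted over 6 tests). The difference therefore did not pass after adjustment.

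The difference depended on which regions were counted. With regions in at least 4 lists only, it was -0.00893 points (exact p = 0.943), and it missed the threshold without MUT replicate 26 (0.106 points), MUT replicate 28 (0.105) or WT replicate 7 (0.128). It was 0.272 points with lists of equal length, 0.401 among the upper 50% of each list and 0.0709 (exact p = 0.0571) for the 2381 regions over 100 kb from genes. For the 752 over 50 kb from every annotated gene it was 0.0415 (exact p = 0.0286). The desert share of called length was 7.13 ± 0.0351% in MUT and 6.92 ± 0.0564% in WT libraries (SD, n = 4 each; exact permutation p = 0.0286, 0.0857 adjusted). The median desert peak width was 373 ± 8.52 bp in MUT and 366 ± 2.16 bp in WT libraries (exact p = 0.229), and without MUT replicate 29 the difference was 11 bp (exact p = 0.0286). The near intergenic share was 20.7 ± 0.134% in MUT and 20.9 ± 0.258% in WT libraries (exact p = 0.200).

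**Figure D3:**
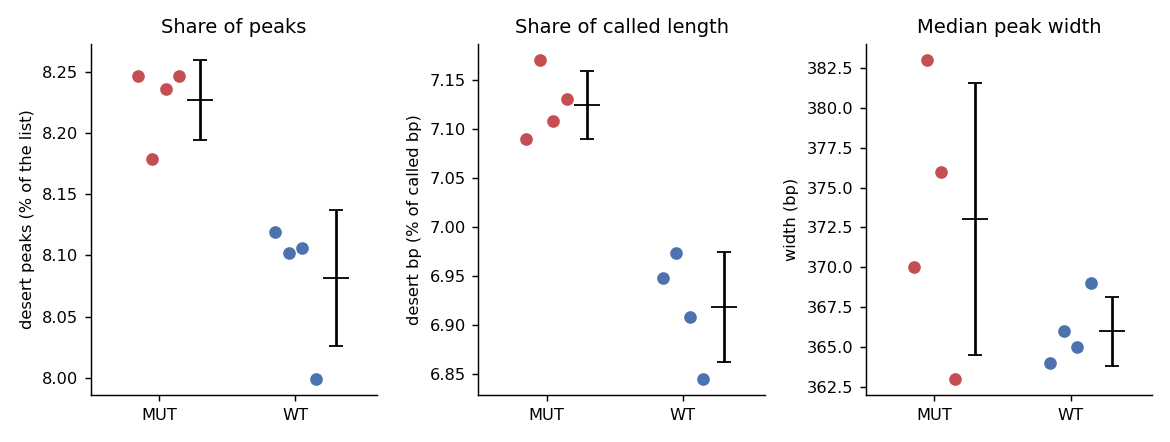
Desert share of peaks in % (left), desert share of called length in % (middle) and median desert peak width in bp (right), 1 point per library, MUT left of WT; bars give mean and SD over 4 libraries, and the axes do not start at 0. Groups separate in the first 2 panels, with means of 8.23 and 8.08% and of 7.13 and 6.92%, and overlap in the last.

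More desert regions leaned to MUT than to WT. Peaks were called in more MUT than WT lists at 873 of the 4361 regions and in fewer at 490 (11.2%). Over all consensus regions peaks were in more MUT lists at 14.9% and in fewer at 9.97%. The MUT lists were longer on average, and MUT replicate 27 was the longest of all, with a peak in 90.8% of desert regions. Regions that every MUT list held and every WT list lacked were called MUT-only, and those with the reverse pattern WT-only. There were 44 MUT-only desert regions, 1.01% of 4361, where the background over all consensus regions was 0.583%. There were 13 WT-only desert regions, 0.298%, where the background was 0.178%. In gene bodies 0.764% were MUT-only and 0.197% WT-only, in near intergenic regions 0.568 and 0.207%, and at gene ends 0.166 and 0.0830%.

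**Figure D4:**
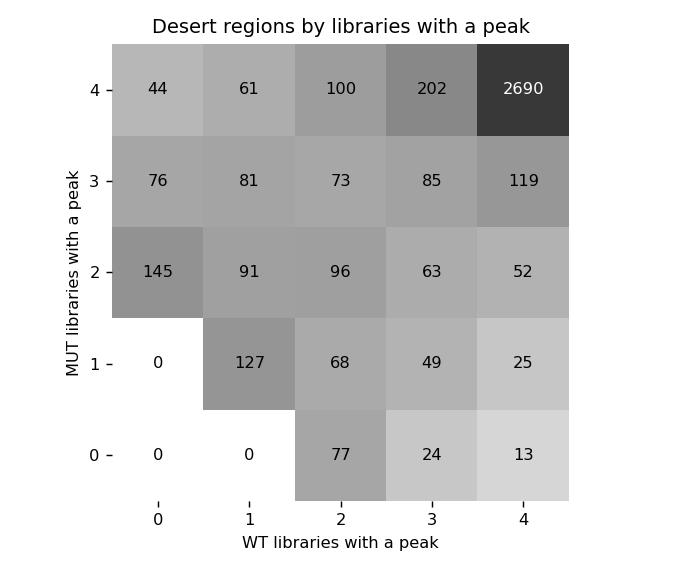
Number of desert regions by how many MUT libraries (vertical) and how many WT libraries (horizontal) had a peak, shaded on a log scale. The top left square holds the 44 MUT-only regions and the bottom right the 13 WT-only regions, and the square at 4 MUT and 3 WT libraries holds 202 regions, against 119 at 3 MUT and 4 WT.

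Most of the regions of 1 genotype were weak peaks. The median percentile was 26.2 in MUT-only and 29.2 in WT-only desert regions, against 21.5 for all 1671 desert regions missing from at least 1 list. Of these 1671, 2.63% were MUT-only and 0.778% WT-only, where the same shares of all consensus regions missing from a list were 1.87 and 0.571%. When each list was shortened to its strongest 42695 peaks, 38 of the 44 MUT-only and 13 of the 13 WT-only regions kept their pattern. When only the upper 50% of each list counted, 3 of the 44 and 0 of the 13 did.

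The called length of each region was also compared between genotypes, with limma on log2(bp + 200) over all 50044 consensus regions and Benjamini-Hochberg adjustment. Called length was greater in MUT at 52 desert regions (1.19%), where the background was 0.681%, and smaller at 15 (0.344%), where the background was 0.234%. It was greater at 0.876% of gene body, 0.686% of near intergenic and 0.196% of gene end regions, and smaller at 0.220, 0.289 and 0.173%. The median log2 difference of the desert regions was -0.00315, and that of all regions -0.0187. All 44 MUT-only and all 13 WT-only regions passed. They had to differ strongly on this scale, since no peak was narrower than 200 bp, so their p-values add nothing to the pattern and are not given. The test adds the other 10 regions, which had peaks in both genotypes, and 3 of these 10 passed in 8 of 8 fits that left out 1 library.

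The stretch from Map3k7, the kinase TAK1, to Bach2 held the longest MUT-only region. Bach2 encodes a repressor that restrains effector programmes in lymphocytes. The region chr4:32164355-32165283, 73.1 kb from Bach2, had 922, 914, 891 and 660 bp called in MUT replicates 26 to 29 and none in any WT library. Its mean in MUT libraries was 847 bp, where the next longest MUT-only region had 592 bp, and its percentile was a modest 36.4.

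A second MUT-only region, chr4:32099436-32099823, lay 139 kb from Bach2 and was strong, at a percentile of 88.3. It had 366, 376, 384 and 377 bp in the 4 MUT libraries and none in WT. Between the 2 lay chr4:32118900-32119306, with 407, 405, 382 and 390 bp in MUT and 250, 263, 259 and 269 bp in WT libraries. Every MUT library exceeded every WT library there (log2 0.35, limma adjusted p = 0.0179), and 6 of 8 fits without 1 library passed.

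The other 14 regions of the stretch did not pass, although the libraries of the genotypes did not overlap at 106, 105, 77.1 and 58.1 kb from Bach2 either. MUT lengths were the greater at 106 and 58.1 kb, and WT lengths at 105 and 77.1 kb. Such separation, in either direction, was found at 7.66% of desert regions and 5.92% of all consensus regions. The longest region of the stretch, 97.9 kb from Bach2, had 1254, 1324, 1454 and 1049 bp in MUT and 1123, 1144, 1021 and 1291 bp in WT libraries, which overlap. The scaled log2 difference was above 0 at 13 of the 17 regions and at 48.8% of all desert regions. At 105 kb from Bach2 it ran the other way, with 0, 435, 0 and 369 bp in MUT and 472, 543, 507 and 545 bp in WT libraries (log2 -1.07, limma adjusted p = 0.355). So did the region at 77.1 kb, with 367, 378, 361 and 379 bp in MUT and 403, 446, 446 and 501 bp in WT libraries (log2 -0.212, limma adjusted p = 0.309).

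**Figure D5:**
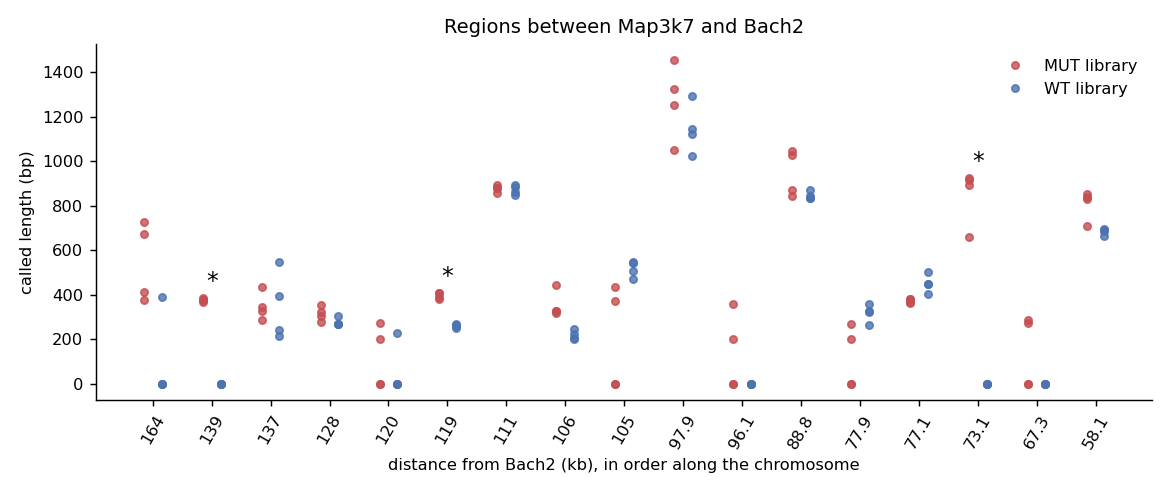
Called length in bp of the 17 desert regions between Map3k7 and Bach2 in each MUT (red) and WT (blue) library, ordered along the chromosome and labelled by distance from Bach2 in kb; asterisks mark the 3 regions with a limma adjusted p under 0.05. The MUT points stand above WT at 139, 119 and 73.1 kb. They also lie above WT at 106 and 58.1 kb and below WT at 105 and 77.1 kb, where the difference did not pass.

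The strongest MUT-only region, at a percentile of 92.9, lay on chromosome 18 between the zinc finger gene Zfp608 and Gramd3. It had 454, 678, 613 and 622 bp in MUT libraries and none in WT. The neighbouring region had 539, 532, 469 and 439 bp in MUT and 300, 344, 301 and 346 bp in WT libraries (log2 0.38, limma adjusted p = 0.0225). The genotypes did not overlap there either, but 5 of 8 fits without 1 library passed, and without WT replicate 4 the adjusted p was 0.0667.

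Beside Ets1, a factor that NK cells need for their development, chr9:32901168-32901749 had 364, 558, 367 and 486 bp in MUT libraries and none in WT. Single MUT-only regions at percentiles of 16.0 to 30.0 also lay beside Eomes, Runx1, Myc and Foxo1, so that 7 of the 481 regions bordering listed transcription factors were MUT-only (1.46%) and 1 was WT-only (0.208%). Both shares lie near the 1.01 and 0.298% of all desert regions. That WT-only region lay in the Foxo1 stretch too. By limma 8 of the 481 were longer and 1 shorter in MUT, and their median log2 difference was 0.00415, beside -0.0187 over all consensus regions.

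MUT-only regions also bordered Cxcr4, which retains cells in bone marrow, S1pr1, which lets lymphocytes leave tissues, and Tgfbr2, a receptor for TGF-beta. They amounted to 3 of the 47 regions beside listed cytokine and chemokine receptors (6.38%), where 1.01% of all desert regions and 0.583% of all consensus regions were MUT-only. The Tgfbr2 region, 119 kb away, had 320, 313, 257 and 214 bp in MUT libraries and none in WT. The median log2 difference of the 47 was 0.0173. The Cxcr4 and S1pr1 regions had percentiles of 31.9 and 10.2. Jun had 2 MUT-only regions, at percentiles of 46.1 and 24.7, and Itgb1 and Pdcd1 had 1 each. The Pdcd1 region lay 405 kb away, at a percentile of 18.1, with 231, 206, 201 and 200 bp in MUT libraries. Ets2 and Ccnd2, which are not listed genes, also bordered 1 each. In antigen receptor loci 4 of 139 regions (2.88%) were MUT-only and none WT-only: 2 in Tcra, 1 in Igh and 1 in Tcrg. Regions beside NK receptor, adhesion and effector genes had a median log2 difference of 0.0430 with 2 of 63 MUT-only (3.17%). Those beside signalling genes had 0.00203 with 2 of 131 (1.53%), and those beside the neural genes -0.0563 with 1 of 57 (1.75%). No list was tested against the others.

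The region over Mir30a, chr1:23272159-23272461 between Ppp1r14bl and Ogfrl1, had 279, 303, 281 and 200 bp in MUT libraries and none in WT. Its percentile was 34.4, and the assay says nothing of the level of the microRNA.

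Of the 8 regions called in all libraries and longer in MUT, 2 are described above. The one between Cldn23, a tight junction gene, and Prag1 differed most, with 550, 660, 734 and 588 bp in MUT and 339, 329, 374 and 325 bp in WT libraries (log2 0.58, SE 0.0611, limma adjusted p = 0.00402). The one between Mvb12b and Pbx3, a homeobox gene, had 635, 688, 717 and 631 bp in MUT and 505, 372, 389 and 371 bp in WT libraries (limma adjusted p = 0.0113). In both, all MUT libraries lay above all WT libraries, and both passed in 8 of 8 fits without 1 library.

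The Slco3a1 to Sv2b region passed in 8 of 8 such fits as well, with 472 to 518 bp in MUT and 288 to 360 bp in WT libraries. The remaining 3, between Cpsf6 and Cpm, Ccdc171 and Bnc2, and Cnksr2 and Rps6ka3, passed in 2 to 6. The single shorter region in all libraries, between Nfia and Tm2d1, had 299, 379, 209 and 401 bp in MUT and 614, 589, 614 and 588 bp in WT libraries (log2 -0.66, limma adjusted p = 0.0496), and 2 of 8 fits passed. A Tcra region called in 1 MUT and 4 WT libraries was shorter in MUT (limma adjusted p = 0.0385) and passed in 1 of 8.

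Of the 13 WT-only regions, 1 bordered a listed gene, Foxo1. The longest was chr9:80669806-80670382, between the photoreceptor matrix gene Impg1 and the serotonin receptor gene Htr1b. It had no peak in MUT libraries and 493, 551, 486 and 549 bp in WT libraries. The next region along the stretch was WT-only too, with 324, 316, 283 and 283 bp in WT libraries. Another, chr9:80819084-80819433, was MUT-only, with 274, 350, 202 and 200 bp in MUT libraries. A further region was called in 3 MUT libraries and no WT library, so 4 of the 6 regions of this stretch were called in 1 genotype only.

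Another pair of WT-only regions lay on chromosome 18 between Commd10 and the guidance gene Sema6a. The WT-only region at the highest percentile, 46.5, was chr1:185058199-185058645 between Mark1, a kinase of microtubule proteins, and Rab3gap2. It had no peak in MUT libraries and 320, 344, 235 and 402 bp in WT libraries. The others lay beside Bcl11a, Pld5, Foxo1, Slc16a7, Cibar1, Mgat4c, Lrrc3b and Otol1, at percentiles of 7.97 to 36.8.

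Called length was also summed over each stretch, a test added after seeing the data. Of 949 stretches with a desert region, 20 (2.11%) were longer in MUT and 9 (0.948%) shorter by limma. Of the 20, 4 held 1 region, and 8 of the 20 held no region that had passed alone. Map3k7 to Bach2 had 7493, 9258, 8268 and 7635 bp in MUT and 6035, 6046, 5817 and 6443 bp in WT libraries (log2 0.36, SE 0.0521, limma adjusted p = 0.0120). Every MUT library exceeded every WT library. This sum includes the 3 regions that had passed alone, 2 of them MUT-only, so its p-value is not separate support for them. The same holds for every stretch with a region that had passed alone.

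Foxo1 encodes a factor of NK cell maturation and homing, and its stretch to Cog6 averaged 14206 ± 950 bp in MUT and 12154 ± 475 bp in WT libraries (SD, n = 4 each; log2 0.18, limma adjusted p = 0.0148). The stretch from Wwox to Maf, a lymphocyte transcription factor gene, averaged 5288 ± 773 bp in MUT and 3924 ± 297 bp in WT libraries (SD, n = 4 each; limma adjusted p = 0.0493). The stretch from S1pr1 to Dph5 averaged 2596 ± 266 bp in MUT and 1920 ± 200 bp in WT libraries (SD, n = 4 each; limma adjusted p = 0.0332). The one from the chaperone gene Dnajb6 to the cytokine gene Il6 averaged 3328 ± 442 bp in MUT and 2228 ± 381 bp in WT libraries (SD, n = 4 each; limma adjusted p = 0.0494).

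Among the 9 shorter stretches, Dusp6 to Csl held the most regions, 18. Dusp6 encodes a phosphatase of ERK. The stretch had 5560, 6098, 5741 and 5030 bp in MUT and 6801, 6205, 6307 and 6315 bp in WT libraries (log2 -0.23, limma adjusted p = 0.0171), with no overlap. The Igh stretch averaged 31962 ± 1424 bp in MUT and 28985 ± 633 bp in WT libraries (SD, n = 4 each), and the Tcra stretch 12798 ± 899 bp in MUT and 13549 ± 941 bp in WT libraries; neither passed (limma adjusted p = 0.360 and 0.401). Igh regions with a peak numbered 77, 81, 75 and 83 in MUT replicates 26 to 29 and 70, 73, 75 and 70 in WT replicates 4 to 7. Of the B cell markers, 0 to 3 were open in MUT and 1 to 2 in WT libraries, and the part of B cells in the Igh values was not tested. The stretches beside Id2 (limma adjusted p = 0.576) and Myc (0.589) did not pass either.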

How the data were processed

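ATAC-seq peak lists of 8 splenic NK cell libraries, 4 MUT and 4 WT, were used. The deposited files held, per library and not pooled, each peak's position, name and an unnamed score; the authors' score has no stated scale and only ranked peaks within a list. The submitters' processing notes name build mm10 (GRCm38) and, without roles, Trimmomatic, DESeq2, DiffBind 3.0.12 and Bowtie2 2.3.4.1. Not given in the sources used here are the peak caller, its threshold, read filters and any correction of cut positions. Width and presence of a peak move with depth, which is unknown.

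Genes and sequences came from RefSeq tables (GRCm38.p6, 21883 protein-coding genes, no strand or exons). Called length is the summed width of a region's peaks in a library. For limma 3.58.1 (R 4.3.3, trend) the total called length of each library was scaled to the median, and log2(bp + 200) was tested over regions in at least 2 lists, with an adjusted p under 0.05. Lengths printed in bp are not scaled, and a log2 value understates the change of short regions. Permutation and sign-flip tests (Python 3.11.15) were exact and two-sided. The limma step was also run on simulated data with normal noise. Those data lack the mixture of called and uncalled lengths in the real lists, so nothing is concluded from them. Intervals cover counting error only.

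The regions, the 6 gene lists (226 genes, all matched) and the tests were chosen with earlier results of these data known. Named regions were, by rule, up to 12 per direction with the largest called difference and no overlap between genotypes, up to 12 MUT-only and 12 WT-only by percentile, the 12 strongest, the 6 widest, the 10 fullest stretches and regions bordered by list genes; others past the test, the promoters and Mir30a were named after their values were seen. Predicted genes are named as borders only where there is no other. Numbers in the labels pair no mice. Alternatives tried were equal list lengths, the upper 50% of each list, merging across 100 bp, at least 4 lists, over 100 kb, all annotated genes as borders, autosomes, each library left out, log2(bp + 1000), no scaling and no filter on lists; sums per stretch and leaving out antigen receptor loci were added after seeing the data.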

Additional observations from a re-analysis of the deposited data

Results flagged for a closer look

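Within a group of 4 libraries, 1 library stood apart from the other 3 by Dixon's test in 10 of 88 groups examined; chance flags about 1 in 20. The desert share of peaks was lowest in MUT replicate 27, at 8.179%, against 8.236 to 8.247% in the other MUT libraries, and lowest in WT replicate 7, at 7.999%, against 8.102 to 8.119% in the other WT libraries. These are the longest and the shortest of the 8 lists.

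The other flags concern the called length of single regions. MUT replicate 29 was low in 3 MUT regions, with 660 bp in the Map3k7 to Bach2 region 73.1 kb from Bach2 (others 891 to 922 bp), 249 bp between Ccnd2 and Parp11 (others 428 to 460 bp) and 472 bp between Slco3a1 and Sv2b (others 512 to 518 bp). MUT replicate 28 was low between Ncam1 and Plet1, at 214 bp (others 307 to 315 bp), and high between Cnksr2 and Rps6ka3, at 702 bp (others 583 to 603 bp). WT replicate 4 was high between Mvb12b and Pbx3, at 505 bp (others 371 to 389 bp), and low in 1 WT-only region between Commd10 and Sema6a, at 207 bp (others 294 to 305 bp). WT replicate 6 was low in the WT-only region between Lrrc3b and Oxsm, at 200 bp (others 258 to 266 bp).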

How the results depend on the processing

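No paired analysis was possible because MUT and WT libraries share no replicate number. The higher MUT share of desert peaks turned to -0.00893 points (exact p = 0.943) when regions had to be in at least 4 lists. It missed the threshold at 0.0709 points among the 2381 regions over 100 kb from genes and kept it at 0.0415 among the 752 over 50 kb from every annotated gene; without 1 library it ranged from 0.105 to 0.178 and missed the threshold without MUT replicate 26, MUT replicate 28 or WT replicate 7. The width difference between desert and near intergenic peaks was 5.19 bp among the upper 50% of each list. The width difference between genotypes was 5.25 to 11 bp without 1 library. Without 1 library, MUT-only regions numbered 51 to 74 (70 without MUT replicate 29, 74 without WT replicate 6) and WT-only regions 15 to 23 (20 to 23 without MUT replicate 27, 28 or 29 or WT replicate 6 or 7), since 3 lists of that genotype, or the absence of a peak from 3, then sufficed. Longer regions numbered 37 to 88 (88 without WT replicate 6) and shorter regions 10 to 33 (33 without MUT replicate 29, 23 without MUT replicate 28 or WT replicate 6), and 63.5 to 64.4% of desert regions were in all lists left. Over 100 kb from genes there were 27 MUT-only, 8 WT-only and 31 longer regions. Over 50 kb from every annotated gene 752 desert regions were left, with 6 MUT-only, 3 WT-only, 7 longer and 3 shorter. Among the upper 50% of each list 7 were WT-only and 8 shorter; 37 were MUT-only, but 3 of them were among the 44. With at least 4 lists 71.7% were in all 8, 33 were longer and 7 shorter. Summed per stretch, 20 were longer and 9 shorter. Without antigen receptor loci, 4222 desert regions were left, with 40 MUT-only and 48 longer regions. The loci were only left out of the counts and the fit was not rerun, so no call of a region could change. No log2 difference of the 67 regions past the test changed sign under any alternative in which the region was found. For the 44 MUT-only and 13 WT-only regions this says little, since every library of 1 genotype has no called length there. Leaving out a library, no scaling or log2(bp + 1000) could not reverse their sign. Only the other 10, with peaks in both genotypes, could have changed sign in those settings. The alternative distance limits regroup regions without altering called length, so they could change no sign. Of the 67, 67 passed with log2(bp + 1000), 65 with no scaling, 63 with merging across 100 bp, 59 with lists of equal length and 40 with at least 4 lists, and 46 to 64 without 1 library, fewest without MUT replicate 26. Among the upper 50% of each list 17 of the 67 were found and 6 passed. Depth is unknown, so an uncalled peak may lie just under an unstated threshold.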
